A study of Mus musculus with 4 samples.

Results

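The nuclear genes for oxidative phosphorylation were compared between Naa10-KO and wild-type (WT) mouse embryonic stem cells (ESCs), with 2 RNA-seq libraries per genotype. Rows were taken by gene symbol, namely those that start with Ndufa, Ndufb, Ndufc, Ndufs, Ndufv, Uqcr, Cox4 to Cox8, Atp5, Sdha to Sdhd or Cyc1. No measured value entered the rule, but the members were chosen with earlier results of these data known. The rule found 88 of the 14099 named rows of each table. These were 34 rows of complex I subunits, 4 of complex II, 9 of complex III, 15 of complex IV, 15 of complex V and 11 of assembly factors and relatives. Ndufa4, whose symbol points to complex I, was counted with complex IV, where its protein has since been placed. Ndufs1, Ndufb10, Ndufaf3, Cox6a2, Cox7a1, Cox8b and Ndufa4l2 are not analysed here.

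Per the labels, all 4 libraries came from hybrid ESC lines derived from the inner cell mass of blastocysts, from crosses of C57BL/6 females of genotype Naa10-/X with WT males of the distant JF1 strain. The Naa10-KO cells carried the knockout and the WT cells were their littermates. Both were grown in N2B27 medium with a Mek inhibitor, a Gsk3 inhibitor and LIF, for 5 passages on irradiated embryonic fibroblast feeders and then 5 passages without them. The labels call the libraries biological replicates but do not say whether they were separate lines or cultures of 1 line, so a p-value here covers no more than the scatter of these 4 samples. Naa10 is the catalytic subunit of NatA, which acetylates the N-termini of nascent proteins, and the series title concerns its role in DNA methylation and imprinting.

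Oxidative phosphorylation takes place at the inner mitochondrial membrane. Complex I (NADH dehydrogenase) and complex II (succinate dehydrogenase) pass electrons to ubiquinone, complex III hands them to cytochrome c, and complex IV (cytochrome c oxidase) passes them to oxygen. The proton gradient built on the way drives complex V, the ATP synthase. Apart from complex II, each complex is built from products of both the nuclear and the mitochondrial genome, and only the nuclear genes are described here. Naive ESCs are known to use both respiration and glycolysis.

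The values were RPKM, read counts scaled by transcript length and by the mapped reads of the library, which permit levels of different genes to be compared per length. The targeted gene shares its row with the neighbour Renbp, and the joined row stood at 28.9 and 34.4 RPKM in Naa10-KO against 105 and 106 RPKM in WT (log2 difference -1.71, SE 0.11, limma adjusted p = 0.0342). Its limma adjusted p was 0.0820 without rows listed at 0 and small RNA rows, 0.366 without WT replicate 1 and 0.355 without WT replicate 2, while its log2 difference stayed between -1.83 and -1.59 under every alternative that kept the row. Relative depth, read from the steps between low values, was 1.46 and 1.68 in Naa10-KO replicates 1 and 2, against 1 and 1.02 in WT replicates 1 and 2; the number of reads behind a value is not known. Embryonic stem cell markers summed to 3878 and 4731 RPKM in Naa10-KO and 4682 and 4766 RPKM in WT, with 0 of 10 rows at 0. Of these 10, 7 lay below both WT libraries and 3 above in Naa10-KO replicate 1, while 1 lay below and 8 above in Naa10-KO replicate 2. The largest part of the sum is a row that joins Dppa5a with Ooep, at 1698 and 2018 RPKM in Naa10-KO and 2476 and 2578 RPKM in WT. The 16 fibroblast markers summed to 897 and 235 RPKM in Naa10-KO and to 260 and 276 RPKM in WT, with 0 of 16 rows at 0. The largest part of that sum is Vim, at 386 and 137 RPKM in Naa10-KO and 118 and 128 RPKM in WT. Of the 16 markers, 14 lay above both WT libraries and 2 below in Naa10-KO replicate 1, while 1 lay above and 14 below in Naa10-KO replicate 2. Over all tested rows, 38.3% lay above and 54.6% below in Naa10-KO replicate 1, and 41.8% above and 48.3% below in Naa10-KO replicate 2. In bulk RNA, fewer cells of a type and less RNA per cell cannot be told apart.

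No oxidative phosphorylation row passed the test between genotypes. Differences were tested with limma on log2(RPKM + 1) over the 11912 rows that reached 1 RPKM in 2 or more libraries, a filter that 87 of the 88 members passed, all but Cox7b2. With a Benjamini-Hochberg adjusted p under 0.05, limma called 0 of 87 members, beside 0.764% of all tested rows (0.546% lower and 0.218% higher in Naa10-KO). At an unadjusted p under 0.05, 14 members were lower and 6 higher in Naa10-KO, together 23.0% of the members beside 22.1% of all tested rows (13.2% lower and 8.9% higher). The smallest adjusted p among members was 0.0890. Without rows listed at 0 and small RNA rows, limma called 0 of all rows in place of 91, and 0 members. The members' count rests on both Naa10-KO libraries: without Naa10-KO replicate 1 limma called 42 members and without Naa10-KO replicate 2 it called 46, but these fits take the spread from the close WT pair alone, and all rows called then numbered 4938 and 7081.

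The members leaned to lower levels, by small amounts. Their median log2 difference was -0.13, against -0.06 over all tested rows and -0.01 over the 3906 tested rows whose mean reached 20 RPKM. With each library centred on its median, the members' median was -0.067. The extremes were -0.58 for Ndufaf7 and 0.46 for the joined row of Atp5d and Midn. A difference of more than 0.5 in either direction was seen in 4.60% of members and in 16.1% of all tested rows, which include many low rows. The median absolute difference was 0.18 over members and 0.22 over all tested rows. Among rows averaging at least 20 RPKM it was 0.17 over members and 0.19 over all, so members differed about as much as rows of that level. Both Naa10-KO libraries lay below both WT libraries in 42 of 87 members, or 48.3% beside 34.9% of all tested rows, and above both in 15, or 17.2% beside 24.4% of all tested rows. The remaining 30 overlapped, and 59.3% of all tested rows did not overlap. Among rows averaging at least 20 RPKM the background shares were 31.5% below and 31.3% above, and 77 members at that level had 48.1% below and 19.5% above. With the same centring, 33 members lay below and 19 above, beside 27.4% and 30.9% of all tested rows. In RefSeq, 27 of the 88 members overlap another gene, among them Atp5j with Gabpa, Uqcrq with Gdf9, Cox7a2 with Tmem30a, Ndufa1 with Rnf113a1 and Uqcrc2 with Pdzd9, and reads of such pairs cannot be told apart without strand.

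**Figure D1:**
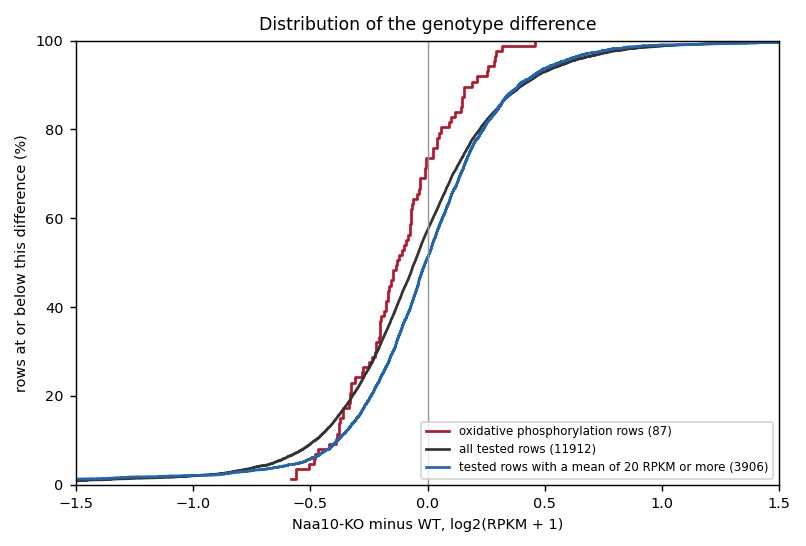
Cumulative share of rows (y axis, percent) at or below each Naa10-KO minus WT difference of log2(RPKM + 1) (x axis), for the 87 tested oxidative phosphorylation rows in red, all 11912 tested rows in black and the 3906 tested rows averaging at least 20 RPKM in blue. The red line crosses 50% at -0.13, the black line at -0.06 and the blue line at -0.01, and the red line spans -0.58 to 0.46.

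Each Naa10-KO library was also set against both WT libraries on its own. Naa10-KO replicate 1 lay below both WT libraries in 53 members and above both in 20, or 60.9% and 23.0%, beside 54.6% and 38.3% of all tested rows. Naa10-KO replicate 2 lay below both in 54 members and above both in 26, or 62.1% and 29.9%, beside 48.3% and 41.8% of all tested rows. Among tested rows averaging at least 20 RPKM the background was 48.7% below and 44.5% above in Naa10-KO replicate 1, and 44.8% below and 47.2% above in Naa10-KO replicate 2. The median log2 difference from the WT mean was -0.13 in Naa10-KO replicate 1 and -0.12 in Naa10-KO replicate 2, against -0.08 and -0.02 over all tested rows. Both comparisons share the WT libraries. Both Naa10-KO libraries had members more often below WT than above it. The part of fibroblast RNA in either library was not tested. In 11 of 87 members 1 Naa10-KO library was below and the other above both WT values, beside 3008 of all 11912 tested rows. Among these members was the complex I gene Ndufv3, at 166 and 241 RPKM in Naa10-KO and 213 and 223 RPKM in WT. The median gap between replicates over the members was 0.14 on the log2 scale in Naa10-KO and 0.05 in WT.

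**Figure D2:**
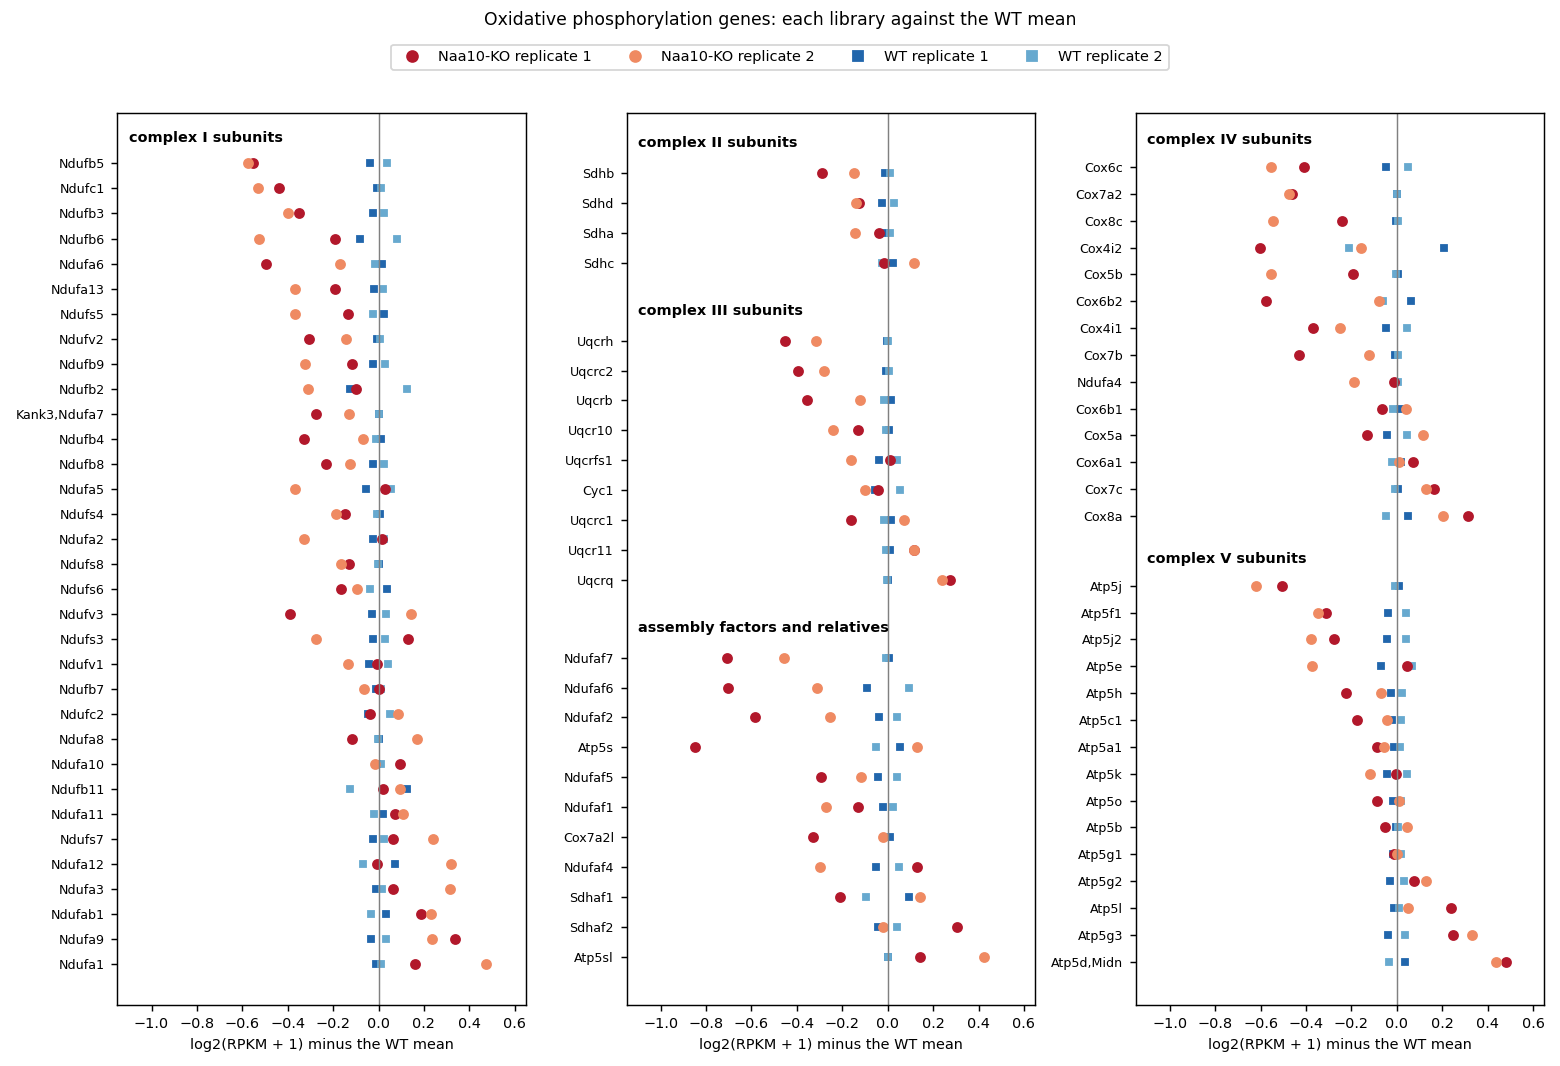
Log2(RPKM + 1) of each library minus the WT mean (x axis) for 86 of the 87 tested rows, ordered by difference within each complex, with Naa10-KO libraries as circles and WT libraries as squares. The Naa10-KO circles lie to the left of both WT squares in 42 rows and to the right in 15. Over the 87 tested rows, the median gap was 0.05 between WT squares and 0.14 between Naa10-KO circles. In some rows the WT squares lie further apart than the circles, such as Ndufb11 (0.25 against 0.08).

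The levels differed more between subunits than between genotypes. The median over rows of the group's mean RPKM was 259 in Naa10-KO and 295 in WT for complex V, 249.1 and 251.2 for complex IV, 207 and 237 for complex III, 76.4 and 81.9 for complex I, 71.3 and 80.6 for complex II, and 7.09 and 9.55 for the assembly factors and relatives. Summed over its rows, complex V reached 99.1% and 99.97% of the WT mean in Naa10-KO replicates 1 and 2. That sum includes the joined row of Atp5d and Midn, at 502 and 487 RPKM in Naa10-KO and 369 and 351 RPKM in WT. The part of Midn in it cannot be told apart, so the level of complex V alone is not known. The sum of complex I likewise includes the joined row of Ndufa7 and Kank3, at 329 and 364 RPKM in Naa10-KO and 398 and 398 RPKM in WT. The sums were 94.8% and 93.9% for complex IV, 92.7% and 95.9% for complex III, 92.0% and 95.2% for complex II, 90.9% and 97.5% for complex I, and 81.4% and 98.3% for the assembly factors and relatives. The sums of complexes I to IV thus lay lower in both Naa10-KO libraries than the WT mean, by small amounts. A sum is governed by its most abundant rows and was not tested.

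**Figure D3:**
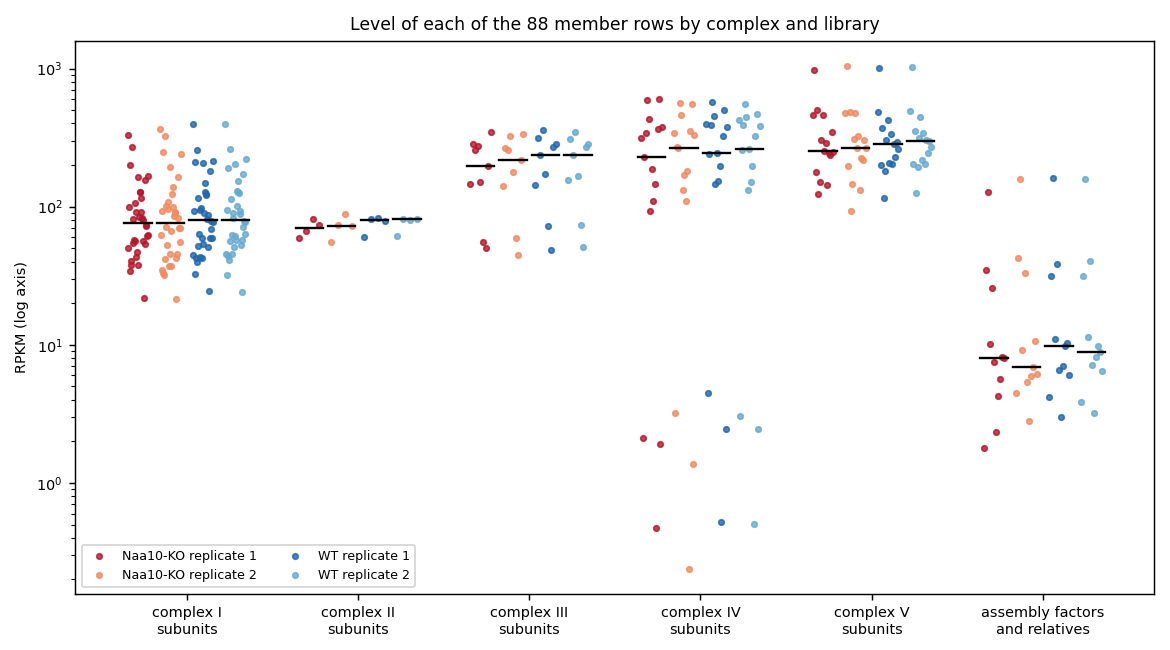
RPKM (log axis) of each of the 88 rows in each library, grouped by complex, with Naa10-KO libraries left of WT libraries and black bars at the median of each library. Subunits of complexes III, IV and V mostly lie above 100 RPKM and assembly factors mostly near 10 RPKM. Over WT means, the median was 81.9 RPKM for complex I and 80.6 RPKM for complex II. Means of complex I rows spread from 23.0 RPKM (Ndufs4) to 372 RPKM (the joined row of Ndufa7 and Kank3). The 3 lowest points of each complex IV column are Cox4i2, Cox8c and Cox7b2.

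Complex I, the entry point of electrons from NADH, had 15 of 34 rows (44.1%) below both WT libraries and 6 (17.6%) above. Over all tested rows the shares were 34.9% and 24.4%. The median log2 difference of complex I was -0.14, and -0.075 after centring. Its 6 measured core subunits, which are conserved from bacteria and carry the flavin and iron-sulphur clusters, had a median of -0.07, and the 28 further subunits -0.16. Ndufb5, a further subunit of the membrane arm, stood at 37.5 and 36.9 RPKM in Naa10-KO and at 54.0 and 56.9 RPKM in WT. The groups did not overlap, and both Naa10-KO libraries were at about the same level (log2 difference -0.56, SE 0.07, limma adjusted p = 0.0902). Ndufc1, another small membrane-arm subunit, had 91.6 and 86.1 RPKM in Naa10-KO and 124 and 125 RPKM in WT, again without overlap (log2 difference -0.48, SE 0.07, limma adjusted p = 0.0974). Ndufb3 had 46.8 and 45.2 RPKM in Naa10-KO and 58.9 and 61.1 RPKM in WT, with a limma adjusted p of 0.125.

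Some other complex I subunits lay the other way. Ndufa1, a membrane-arm subunit encoded on the X chromosome, had 50.1 and 62.6 RPKM in Naa10-KO and 44.4 and 45.1 RPKM in WT (log2 difference 0.32, SE 0.13, limma adjusted p = 0.264). Both Naa10-KO libraries were above WT, replicate 2 by more than replicate 1. Ndufa9, which sits at the junction of the arms, had 56.6 and 52.6 RPKM in Naa10-KO and 43.5 and 45.6 RPKM in WT (log2 difference 0.29, SE 0.08, limma adjusted p = 0.170). Ndufab1, the mitochondrial acyl carrier protein, had 106 and 109 RPKM in Naa10-KO and 94.8 and 90.5 RPKM in WT. These 3 genes did not overlap between genotypes. The highest row of the complex joins Ndufa7 with Kank3, so that neither level can be separated. It had 329 and 364 RPKM in Naa10-KO and 398 and 398 RPKM in WT, below in both libraries.

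Among the core subunits, Ndufv1, which binds NADH and flavin, had 60.9 and 55.5 RPKM in Naa10-KO and 59.4 and 62.9 RPKM in WT, with overlap. Its partner Ndufv2 had 62.4 and 70.1 RPKM in Naa10-KO and 77.2 and 77.8 RPKM in WT, below in both libraries (limma adjusted p = 0.246). Ndufs7, which carries the last iron-sulphur cluster before ubiquinone, had 73.1 and 82.7 RPKM in Naa10-KO and 68.7 and 71.0 RPKM in WT, above in both. The core subunits therefore did not lie on a common side of WT.

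Complex II is also an enzyme of the TCA cycle, and 3 of its 4 rows (75%) lay below both WT libraries and 0 above. Over all tested rows the shares were 34.9% and 24.4%. The median log2 difference of complex II was -0.11, and -0.047 after centring. Its iron-sulphur subunit Sdhb had 66.4 and 73.2 RPKM in Naa10-KO and 80.7 and 81.8 RPKM in WT (log2 difference -0.22, SE 0.08, limma adjusted p = 0.234). The membrane anchor Sdhd had 73.1 and 72.6 RPKM in Naa10-KO and 78.5 and 81.5 RPKM in WT. The flavoprotein Sdha had 59.4 and 55.2 RPKM in Naa10-KO and 60.6 and 61.6 RPKM in WT. These 3 rows lay below WT in both libraries, while the other anchor, Sdhc, overlapped, at 80.8 and 88.6 RPKM in Naa10-KO and 83.0 and 80.4 RPKM in WT.

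Complex III passes electrons from ubiquinol to cytochrome c. Of its 9 rows, 4 (44.4%) lay below both WT libraries and 2 (22.2%) above, beside 34.9% and 24.4% of all tested rows. Its median log2 difference was -0.08, and -0.012 after centring. Uqcrh, the hinge protein next to cytochrome c1, had 197 and 217 RPKM in Naa10-KO and 270.2 and 271 RPKM in WT (log2 difference -0.38, SE 0.08, limma adjusted p = 0.130). The core protein gene Uqcrc2 had 55.2 and 59.8 RPKM in Naa10-KO and 72.5 and 73.2 RPKM in WT (log2 difference -0.34, SE 0.08, limma adjusted p = 0.142). Neither overlapped between genotypes. Uqcrq, a small subunit, had 346 and 338 RPKM in Naa10-KO and 286 and 286 RPKM in WT, above in both libraries (log2 difference 0.25, SE 0.06, limma adjusted p = 0.145). Uqcr11, another small subunit, lay above WT by 0.12.

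The catalytic nuclear subunits of complex III overlapped between genotypes. Cyc1, which encodes cytochrome c1, had 146 and 140.3 RPKM in Naa10-KO and 145 and 156 RPKM in WT. Uqcrfs1, the Rieske iron-sulphur protein, had 50.3 and 44.4 RPKM in Naa10-KO and 48.5 and 51.3 RPKM in WT. The most abundant row, Uqcrb, had 276 and 325 RPKM in Naa10-KO and 357 and 350 RPKM in WT, below in both libraries (limma adjusted p = 0.272).

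Complex IV had 8 of 14 tested rows (57.1%) below both WT libraries and 2 (14.3%) above, beside 34.9% and 24.4% of all tested rows. Its median log2 difference was -0.29. The median was -0.22 in Naa10-KO replicate 1 and -0.14 in Naa10-KO replicate 2, each against the WT mean, and -0.10 over the 11 broadly expressed subunits, less far below 0 than the medians of complexes I and II. Over all libraries but only rows averaging at least 5 RPKM it was -0.19. Cox6c had 189 and 171 RPKM in Naa10-KO and 243 and 260 RPKM in WT (log2 difference -0.48, SE 0.09, limma adjusted p = 0.117). Cox7a2, the form of subunit VIIa found in most tissues, had 110.04 and 109 RPKM in Naa10-KO and 152 and 152 RPKM in WT (log2 difference -0.47, SE 0.06, limma adjusted p = 0.0896). In both genes the libraries of each genotype lay close together and apart from those of the other. Cox4i1, the main form of subunit IV, had 316 and 344 RPKM in Naa10-KO and 396 and 422 RPKM in WT (log2 difference -0.31, SE 0.08, limma adjusted p = 0.157).

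Some other complex IV genes were level or above, and others were below. Cox8a, a small subunit of the membrane domain, had 600.4 and 556 RPKM in Naa10-KO and 499 and 467 RPKM in WT (log2 difference 0.26, SE 0.08, limma adjusted p = 0.188). Cox7c had 364 and 356 RPKM in Naa10-KO and 327 and 323 RPKM in WT. Both lay above WT without overlap. Cox6a1, the most abundant row of the complex, overlapped at 588 and 563 RPKM in Naa10-KO and 568 and 552 RPKM in WT. Ndufa4 had 375 and 332 RPKM in Naa10-KO and 377 and 381 RPKM in WT, so that replicate 1 lay just below WT and replicate 2 further below. Cox5b had 340 and 265 RPKM in Naa10-KO and 390 and 387 RPKM in WT. Cox7b had 146 and 181 RPKM in Naa10-KO and 196 and 198 RPKM in WT, so both also lay below WT. Of the 11 broadly expressed subunits, 6 (54.5%) lay below both WT libraries and 2 (18.2%) above, beside 34.9% and 24.4% of all tested rows.

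Complex IV also has isoforms known from particular tissues. Cox6b2, known as the testis form of subunit VIb, had 92.9 and 132 RPKM in Naa10-KO and 145 and 133 RPKM in WT. It made up 17.8% and 22.1% of the Cox6b1 and Cox6b2 total in Naa10-KO and 24.2% and 23.0% in WT. Both Naa10-KO shares were below the WT shares, replicate 2 by less than the distance between the WT libraries (limma adjusted p = 0.382 for Cox6b2). Cox6b1 itself had 430.3 and 464 RPKM in Naa10-KO and 456 and 446 RPKM in WT. Cox4i2, the oxygen-responsive form of subunit IV known from lung, made up 0.662% and 0.929% of the Cox4i1 and Cox4i2 total in Naa10-KO and 1.11% and 0.724% in WT. The testis forms Cox8c, at 1.92 and 1.37 RPKM in Naa10-KO and 2.44 and 2.46 RPKM in WT, and Cox7b2, at 0.475 and 0.240 RPKM in Naa10-KO and 0.519 and 0.508 RPKM in WT, were near the bottom of the tables.

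**Figure D4:**
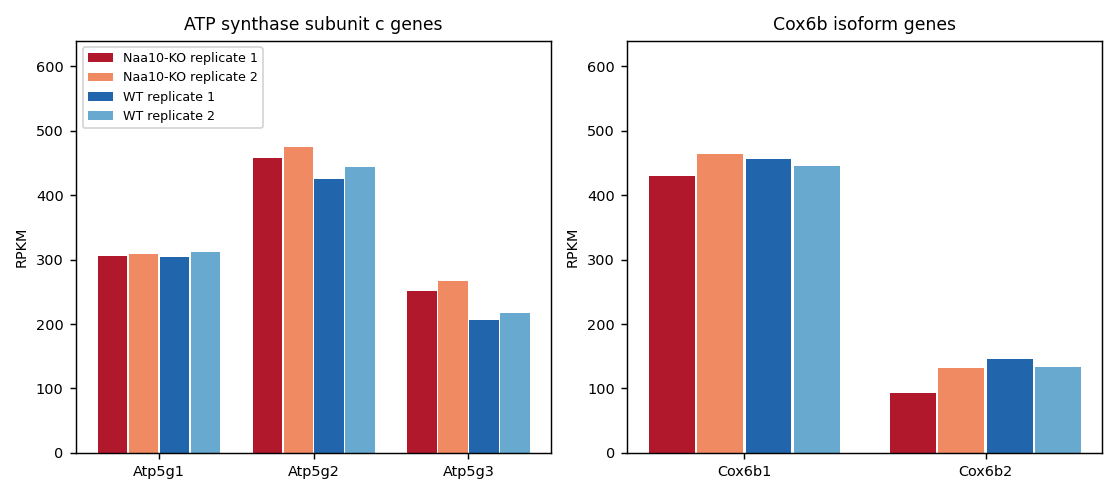
RPKM (y axis, from 0) of the 3 genes of ATP synthase subunit c and of the Cox6b genes in each library, with Naa10-KO bars left of WT bars and 1 bar per library. Atp5g3 stands at 252 and 267 RPKM in Naa10-KO against 206 and 217 RPKM in WT, while Atp5g1 is level in all libraries and Cox6b2 is lowest in Naa10-KO replicate 1.

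Complex V had 6 of 15 rows (40%) below both WT libraries and 4 (26.7%) above, beside 34.9% and 24.4% of all tested rows. Its median log2 difference was -0.06, and 0.003 after centring, so that its direction depends on the scaling. Its rows with the largest differences lay in opposite directions. Atp5j, which encodes coupling factor 6 of the peripheral stalk, had 143 and 132 RPKM in Naa10-KO and 205 and 203 RPKM in WT. It had the smallest p of all members (log2 difference -0.56, SE 0.07, limma adjusted p = 0.0890). Atp5f1, subunit b of the same stalk, had 151 and 147 RPKM in Naa10-KO and 182 and 192 RPKM in WT (log2 difference -0.33, SE 0.07, limma adjusted p = 0.132). The 4 stalk genes had a median of -0.24, with 3 (75%) below both WT libraries, beside 34.9% of all tested rows. The other stalk gene, Atp5o, overlapped at 249.2 and 267 RPKM in Naa10-KO and 262 and 268 RPKM in WT.

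The joined row of Atp5d and Midn had 502 and 487 RPKM in Naa10-KO and 369 and 351 RPKM in WT (log2 difference 0.46, SE 0.07, limma adjusted p = 0.0974). Atp5d encodes the delta subunit of the F1 head, but Midn, a neighbour that encodes the nuclear protein midnolin, shares the row, so its part in the difference cannot be told apart. The catalytic beta subunit Atp5b was the most abundant member, at 977 and 1045 RPKM in Naa10-KO and 1011 and 1018 RPKM in WT, with overlap (log2 difference -0.01, and 0.06 after centring). The alpha subunit Atp5a1 had 463 and 473 RPKM in Naa10-KO and 487 and 496 RPKM in WT, slightly below in both.

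Subunit c, which forms the rotating ring in the membrane, is encoded by 3 genes whose mature proteins are identical. Their sum was 1016 and 1049.8 RPKM in Naa10-KO and 936 and 972 RPKM in WT. Atp5g3 had 252 and 267 RPKM in Naa10-KO and 206 and 217 RPKM in WT (log2 difference 0.29, SE 0.07, limma adjusted p = 0.151). Its share of the sum was 24.8% and 25.4% in Naa10-KO and 22.0% and 22.3% in WT, while that of Atp5g1 was 30.1% and 29.4% in Naa10-KO and 32.5% and 32.0% in WT. The shares did not overlap for either gene. Atp5g2 held 45.1% and 45.2% in Naa10-KO and 45.4% and 45.6% in WT.

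Assembly factors build the complexes without staying in them. Of 6 measured complex I assembly factors, 5 lay below both WT libraries and 0 above, with a median log2 difference of -0.31; over all tested rows 34.9% lay below and 24.4% above. Ndufaf7, a mitochondrial methyltransferase, had 5.62 and 6.89 RPKM in Naa10-KO and 9.86 and 9.77 RPKM in WT (log2 difference -0.58, SE 0.13, limma adjusted p = 0.142). Ndufaf6 had 4.26 and 5.90 RPKM in Naa10-KO and 7.03 and 8.12 RPKM in WT (log2 difference -0.51, SE 0.19, limma adjusted p = 0.231). Ndufaf2 had 26.0 and 32.9 RPKM in Naa10-KO and 38.4 and 40.6 RPKM in WT. In these 3 genes replicate 1 was the lower Naa10-KO library. The median over the 6 was -0.44 in Naa10-KO replicate 1 and -0.28 in Naa10-KO replicate 2.

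The relatives differed among themselves. Atp5sl, now known as a factor for the distal membrane arm of complex I, had 34.5 and 42.3 RPKM in Naa10-KO and 31.2 and 31.2 RPKM in WT (log2 difference 0.28, SE 0.12, limma adjusted p = 0.280). Cox7a2l, which joins complexes III and IV into supercomplexes, had 127 and 157 RPKM in Naa10-KO and 161 and 159 RPKM in WT, with replicate 2 close to WT. Atp5s had 1.80 and 4.50 RPKM in Naa10-KO and 4.22 and 3.85 RPKM in WT, on opposite sides of WT. The complex II factors Sdhaf1 and Sdhaf2 overlapped between genotypes.

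Promoters were read for letters of 3 regulators long tied to these genes: NRF1 and YY1, whose 10 searched letters stand in capitals in the 5 stretches given with their coordinates, and the ETS family that holds GABPA (CCGGAAG), on both strands of RefSeq windows from 250 bases before to 50 after a start (GRCm38.p6, another build than the deposited values). Of 74 members with a window, 7 held the NRF1 letters, or 9.46% beside 2.31% of the 9516 genes of tested rows with a window. The YY1 letters were in 6, or 8.11% beside 2.51%, and the ETS letters in 19, or 25.7% beside 20.4%. The ETS and YY1 letters overlapped in 0 member windows. The median log2 difference was -0.04 for members with the NRF1 letters, 0.01 with the YY1 letters, -0.07 with the ETS letters and -0.18 for the 58 tested members with none of them or no window. A match is a run of letters, not a site shown to be bound.

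The 250 bases before a start are printed for 5 members, chosen after their values were seen: Atp5j and Uqcrh as genes below WT, and Cox6a1, Atp5g2 and Atp5k as genes with the NRF1 letters and small differences. Atp5j has 2 windows, and the 1 with letters before the start is shown. Each is written 5′ to 3′ on the strand of the gene, from RefSeq on GRCm38.p6, with the searched letters in capitals.
Atp5j, chr16:84834977-84835226, minus strand: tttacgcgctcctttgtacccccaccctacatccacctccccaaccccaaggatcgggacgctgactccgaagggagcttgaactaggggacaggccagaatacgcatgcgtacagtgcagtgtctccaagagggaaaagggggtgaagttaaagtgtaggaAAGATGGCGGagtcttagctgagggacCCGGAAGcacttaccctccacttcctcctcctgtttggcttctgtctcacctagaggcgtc
Uqcrh, chr4:116075071-116075320, minus strand: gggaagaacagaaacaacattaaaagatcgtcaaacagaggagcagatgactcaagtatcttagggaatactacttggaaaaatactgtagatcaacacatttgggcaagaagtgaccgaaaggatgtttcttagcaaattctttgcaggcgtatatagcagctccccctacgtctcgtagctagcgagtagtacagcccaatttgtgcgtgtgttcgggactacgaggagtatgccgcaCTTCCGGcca
Cox6a1, chr5:115348959-115349208, minus strand: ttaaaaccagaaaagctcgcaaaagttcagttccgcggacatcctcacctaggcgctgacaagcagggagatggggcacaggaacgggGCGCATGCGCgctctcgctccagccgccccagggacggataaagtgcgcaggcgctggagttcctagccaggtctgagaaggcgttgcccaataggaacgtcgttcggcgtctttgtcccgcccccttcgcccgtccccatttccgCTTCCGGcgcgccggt
Atp5g2, chr15:102671048-102671297, minus strand: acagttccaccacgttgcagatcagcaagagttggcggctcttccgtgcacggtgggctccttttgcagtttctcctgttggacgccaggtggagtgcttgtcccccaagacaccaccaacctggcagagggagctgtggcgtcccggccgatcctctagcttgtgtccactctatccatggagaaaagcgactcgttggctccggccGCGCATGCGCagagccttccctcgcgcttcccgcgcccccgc
Atp5k, chr5:108434400-108434649, minus strand: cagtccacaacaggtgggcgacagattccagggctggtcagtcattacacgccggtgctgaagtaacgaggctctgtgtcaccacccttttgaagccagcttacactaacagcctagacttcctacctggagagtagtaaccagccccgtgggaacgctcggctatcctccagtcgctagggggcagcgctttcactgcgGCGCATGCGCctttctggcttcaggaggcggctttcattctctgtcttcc

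The capitals mark the YY1 and then the ETS letters in Atp5j, the reverse complement of the ETS letters in Uqcrh, the NRF1 letters and then the reverse complement of the ETS letters in Cox6a1, and the NRF1 letters in Atp5g2 and Atp5k. Atp5j lies head to head with Gabpa, the gene for the DNA-binding subunit of GABP, and a Gabpa window on the plus strand overlaps 197 bases of the printed stretch. Gabpa had 36.0 and 33.7 RPKM in Naa10-KO and 38.6 and 39.7 RPKM in WT, below in both libraries (log2 difference -0.16, limma adjusted p = 0.314). Atp5k had 237 and 219 RPKM in Naa10-KO and 231 and 246 RPKM in WT. The members lie on 19 chromosomes, with 3 on the X chromosome that carries Naa10.

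Gene lists around the chain were read in the same fit. Their counts stand beside 22.1% of all tested rows at an unadjusted p under 0.05, 34.9% below both WT libraries and 24.4% above. Of 20 tested regulators of mitochondrial biogenesis, limma called 0, with 7 (35.0%) at an unadjusted p under 0.05, and 9 (45.0%) lay below both WT libraries and 3 (15.0%) above. Pprc1, a coactivator of the PGC-1 family, had 91.6 and 84.6 RPKM in Naa10-KO and 60.6 and 59.2 RPKM in WT (log2 difference 0.55, limma adjusted p = 0.0964). Tfb2m, a mitochondrial transcription factor, had 11.2 and 12.4 RPKM in Naa10-KO and 17.7 and 17.1 RPKM in WT (log2 difference -0.53, limma adjusted p = 0.123). Ssbp1, which coats single-stranded mitochondrial DNA, had 31.5 and 34.4 RPKM in Naa10-KO and 45.8 and 45.7 RPKM in WT (log2 difference -0.46, limma adjusted p = 0.118).

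Of 24 tested genes of the TCA cycle and pyruvate entry, limma called 0, with 8 (33.3%) at an unadjusted p under 0.05, beside 22.1% of all tested rows. In this list 14 (58.3%) lay below both WT libraries and 1 (4.17%) above, beside 34.9% and 24.4% of all tested rows (median log2 difference -0.19). Suclg2, a subunit of succinyl-CoA ligase, had 25.2 and 25.4 RPKM in Naa10-KO and 33.9 and 35.4 RPKM in WT (limma adjusted p = 0.116). Mpc1 and Sucla2, a subunit of the mitochondrial pyruvate carrier and another of succinyl-CoA ligase, also lay below WT, by -0.38 each (limma adjusted p = 0.168 and 0.139).

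Of 32 assembly factors outside the symbol rule, 0 were called and 7 (21.9%) had an unadjusted p under 0.05, near the 22.1% of all tested rows. In this list 13 (40.6%) lay below and 6 (18.8%) above, beside 34.9% and 24.4% of all tested rows (median -0.14). Among them, Nubpl, which delivers iron-sulphur clusters to complex I, had 6.33 and 9.36 RPKM in Naa10-KO and 12.5 and 12.3 RPKM in WT. Foxred1, another complex I factor, had 7.05 and 10.3 RPKM in Naa10-KO and 13.1 and 13.3 RPKM in WT, while Atpaf2, a chaperone of the F1 head, lay above at 22.3 and 28.2 RPKM in Naa10-KO and 19.7 and 15.1 RPKM in WT. Of 18 carriers and partners, 0 were called and 3 (16.7%) had an unadjusted p under 0.05, with 9 (50%) below and 1 (5.56%) above (median -0.16). Etfa, a subunit of the flavoprotein that feeds electrons from fatty acid oxidation, had 50.04 and 53.2 RPKM in Naa10-KO and 66.9 and 64.7 RPKM in WT (limma adjusted p = 0.137). The ADP/ATP carrier Slc25a5 was the 1 above, at 465 and 592 RPKM in Naa10-KO and 403 and 426 RPKM in WT. Of 13 genes of coenzyme Q synthesis, 0 were called and 0 had an unadjusted p under 0.05, with 3 (23.1%) below and 1 (7.69%) above (median -0.09). Adck3 was listed at 0 in Naa10-KO replicate 1 and had 3.00 RPKM in Naa10-KO replicate 2, against 2.86 and 3.01 RPKM in WT. Coq5 had 9.65 and 13.2 RPKM in Naa10-KO and 15.1 and 15.9 RPKM in WT, and Coq9 overlapped at 7.53 and 13.1 RPKM in Naa10-KO and 12.6 and 12.8 RPKM in WT.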

How the data were processed

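Poly-dT selected RNA of 2 Naa10-KO and 2 WT ESC libraries was measured. Each deposited table gives 1 library in RPKM, per the file headers, as made by the authors; the submitters' processing notes name mm9, Cufflinks and bedtools; the aligner, annotation and strand setting were not given in the sources used here. Rows that join symbols were kept as deposited, and members have 0 rows at 0. RPKM hide the depth; relative depth was the most common ratio between small RNA rows, found in 11 to 22 rows per library, and intervals for counting error cannot be given. No row had the same nonzero RPKM in both libraries of a genotype.

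Limma 3.58.1 in R 4.3.3 was fitted with a mean-variance trend to log2(RPKM + 1), two-sided, over the 11912 rows at 1 RPKM or more in 2 or more libraries, with Benjamini-Hochberg adjustment over all of them. Because of the pseudocount, differences of low rows are understated. The fit was tested on simulated data. Summaries used pandas 2.3.3 under Python 3.11.15. The members and lists were chosen with earlier results of these data known. Named members are the 2 lowest and 2 highest non-overlapping rows and the most abundant row of each complex, isoform genes and, from each further list, up to 3 genes with the largest difference; other members were named after their values were seen, and 1 member, included in all counts, is not reported by name here. Overlaps between genes were read from RefSeq (GRCm38.p6). Many members have pseudogene copies that may share reads. Alternatives were other pseudocounts, filters, scalings, a replicate block and leaving out each library.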

Additional observations from a re-analysis of the deposited data

How the results depend on the processing

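The count of members called was 0 under every alternative that kept all 4 libraries, and 0 to 46 when a library was left out; the lone library of its genotype is then assumed to vary like the other pair, so without a Naa10-KO library the close WT pair sets the spread. Without Naa10-KO replicate 1 the calls were 42 and without Naa10-KO replicate 2 they were 46. The count of all rows called was 91, against 40 with no filter on low values, 0 without rows listed at 0 and small RNA rows, and 12 to 7081 with a library left out. With the replicate number as a block, 44 rows and 0 members were called. Same-numbered libraries deviated in opposite directions (correlation -0.21 over all tested rows), and a crossed pairing, chosen after seeing the data, called 133 rows and 0 members.

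The median log2 difference of the members was -0.11 on rows averaging at least 5 RPKM, -0.067 after centring, -0.11 after quantile normalization and -0.15 to -0.10 with a library left out. For complex I it was -0.075 after centring, -0.12 after quantile normalization, -0.13 without joined rows and -0.15 to -0.10 with a library left out. For complex II it was -0.047 after centring. For complex III it was -0.012 after centring, -0.10 after quantile normalization and -0.13 to -0.059 with a library left out. For complex IV it was -0.19 on rows averaging at least 5 RPKM, -0.23 after centring and -0.27 to -0.14 with a library left out. For complex V it was 0.0033 after centring, so its direction depends on the scaling, -0.047 after quantile normalization and -0.085 to -0.021 with a library left out. Members below WT numbered 33 to 43 under alternatives with all libraries and 44 to 54 with a library left out, and members above WT 14 to 19 and 18 to 26. Of 268 values of 27 named members under 10 alternatives with all libraries, 266 kept their sign and 0 passed the threshold; both exceptions were Atp5b, after centring and quantile normalization. The depth behind the RPKM is not known, so counting error cannot be separated from the spread.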

Other observations

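The testis form of cytochrome c, Cyct, was present beside the general form Cycs. Cyct had 11.5 and 17.5 RPKM in Naa10-KO and 24.3 and 20.9 RPKM in WT, or 20.3% and 27.8% of the Cycs and Cyct total in Naa10-KO and 31.9% and 28.4% in WT (limma log2 difference -0.63, adjusted p = 0.233). Cycs had 45.0 and 45.5 RPKM in Naa10-KO and 51.9 and 52.7 RPKM in WT.

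Transcripts of the members were short, with a median of 717 nt over 84 of the 87 tested rows against 2113 nt over 10620 of all tested rows, from coding transcripts of GENCODE M21. Among rows under 800 nt, 47.9% of 48 members lay below both WT libraries and 20.8% above, beside 37.0% and 23.9% of all 1252 tested rows of that length. Among rows of 800 nt to under 1500 nt, 57.1% of 28 members lay below and 10.7% above, beside 33.8% and 24.0% of 2258 tested rows. Among rows of 1500 nt to under 3000 nt, 25% of 8 members lay below and 0% above, beside 33.4% and 25.3% of 3831 tested rows. The median log2 difference was -0.05 for these 8 members and -0.04 for those tested rows. So few longer members cannot show whether the lean to lower levels holds at that length. The part of length in the members' differences was not tested.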
